A study of Mus musculus with 12 samples.

Results

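Imprinted genes are described here in mouse gastruloids, which are stem cell aggregates that elongate and lay out a body axis in culture. The 34 members were chosen as a list of known mouse imprinted genes, matched by symbol in the table of FPKM values and taken by Ensembl identifier from the table of read counts, which holds 55141 genes. All 34 were found, each with a single identifier. From textbook knowledge, 13 are expressed from the maternal allele and 20 from the paternal allele, while *Gnas* uses either allele depending on the isoform. Read counts do not separate the alleles, so every value below is the total from both.

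The bulk RNA-seq libraries compared gastruloids embedded at 72 h with gastruloids embedded at 96 h after seeding, in Dextran hydrogels, whose concentration was 1.0 mM in some groups and 1.5 mM in the others. The 4 groups (72 h in 1.0 mM, 72 h in 1.5 mM, 96 h in 1.0 mM and 96 h in 1.5 mM) held 3 replicate libraries each, 12 in all. Every group came from cells of the 129/SVEV background, received the Wnt agonist CHIR99021 before embedding, and was collected at 120 h. A library pooled about 30 gastruloids. The study describes its replicates as biological and independent, and the labels do not say what a shared replicate number marks. The p-values measure the spread between these libraries. Gastruloids embedded at 72 h had spent longer in the gel at collection than those embedded at 96 h, and the time of embedding and the time spent in the gel cannot be told apart.

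Imprinting marks a gene by the parent it came from: DNA methylation laid down in the egg or sperm at a control region is kept after fertilization, and the neighbouring genes are then expressed from a single parental allele. Imprinted genes lie in clusters that often pair protein-coding genes with a long non-coding RNA from the opposite parental allele. Many act on growth of the embryo and placenta, where paternally expressed genes such as *Igf2* often promote growth and maternally expressed genes such as *Cdkn1c*, *Phlda2*, *Igf2r* and *Grb10* restrain it.

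Libraries held 23011791 to 27609422 counts. A feature listed as CT010467.1 took between 0.207% and 6.12% of a library, with the highest share in replicate 1 of 72 h, 1.5 mM. That library also stood apart from the other replicates of its group for several members: *H19* had 1215 CPM there (counts scaled to library size) against 575 and 604, and *Peg10* 2732 CPM against 1518 and 1435. Markers of posterior and neuromesodermal tissue, somites, neural tube, endoderm and endothelium were all counted in every group. Of the 5 trophoblast markers, *Tpbpa*, *Prl3d1* and *Prl2c2* were at 0 counts in all 12 libraries and *Elf5* and *Gcm1* had at most 3 counts. Among markers of yolk sac endoderm, *Afp* was at 0 in all 12 libraries. The others of that list were counted in every library, at low levels: *Ttr* (4 to 168 counts), *Hnf4a* (1 to 78), *Amn* (7 to 25) and *Apoa1* (1 to 22).

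Levels of the members were compared on the FPKM scale, which divides by transcript length. *Gnas*, which encodes the stimulatory G protein subunit, was the highest, with a mean of 1120 FPKM ± 130 (SD over 12 libraries). *Nnat*, which encodes neuronatin, followed with 1008 ± 174, and *Igf2*, the fetal insulin-like growth factor, with 841 ± 148. The ranges of these top members over the 12 libraries overlapped, and differences between neighbours in the order were not tested. *Meg3* (366 ± 93.1), *Mest* (361 ± 123), *Rian* (355 ± 66.1) and *H19* (314 ± 59.0) came next, and their ranges also overlapped. *Peg3*, a zinc finger protein gene, and *Peg10*, which derives from a retrotransposon, followed with 188 ± 34.2 and 186 ± 70.2 FPKM. From *Snrpn* (72.0 ± 6.80) down to *Grb10* (1.52 ± 0.36) the levels fell gradually, with *Cdkn1c*, a cyclin-dependent kinase inhibitor gene, at 8.27 ± 2.60.

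The lowest members were *Kcnq1ot1* (0.623 ± 0.14 FPKM), *Ascl2* (0.237 ± 0.14), *Zim1* (0.202 ± 0.063), *Slc22a18* (0.0835 ± 0.047) and *Rtl1* (0.0130 ± 0.0076). *Kcnq1ot1* is a very long transcript, so its low FPKM went with 1116 to 2559 counts per library. *Slc22a18*, an organic cation transporter gene, had 1 to 10 counts and *Rtl1*, a retrotransposon-derived placental gene, 0 to 6. Both failed the filter on low counts in every comparison. *Ascl2*, a trophoblast transcription factor gene with 1 to 21 counts, passed it in all comparisons except that of the gels at 96 h. The other 31 members were tested in all 7 comparisons.

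**Figure D1:**
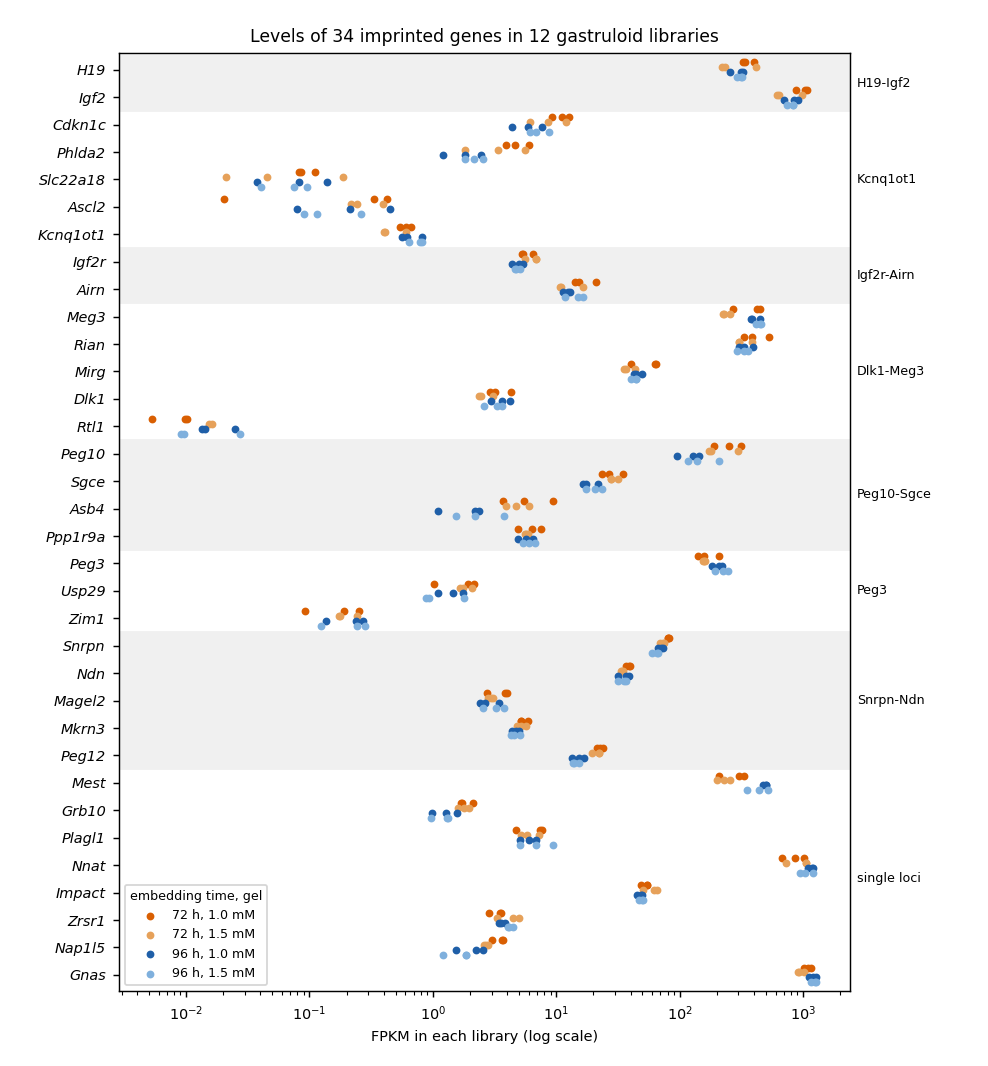
FPKM (log axis) of the 34 imprinted genes in each of the 12 libraries, with a point per library coloured by embedding time and gel and the genes grouped by imprinted cluster. *Gnas*, *Nnat* and *Igf2* sit highest and *Rtl1* lowest, and the single *Rtl1* library at 0 is not drawn.

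Promoter sequences were taken for 28 of the 34 members from RefSeq (GRCm38.p6), as windows of 250 bases before to 50 bases after a start, choosing for each gene the start with the most CpG dinucleotides. The windows of *H19*, *Cdkn1c*, *Rtl1*, *Peg10*, *Sgce* and *Impact* were not used here. The members' windows held a median of 14 CpG, against 8 in the windows of 27025 genes chosen the same way, and a median GC content of 56.5% against 53.3%. The letters TGCCGC, the core of the motif of ZFP57, a zinc finger protein that protects methylated imprints, were searched on both strands. They were in 8 member windows (28.6%) and in 12.2% of all genes' windows: *Mest* and *Nap1l5* held them 2 times, and *Grb10*, *Meg3*, *Nnat*, *Plagl1*, *Snrpn* and *Zim1* had a single match. A match is a description of the letters and not of binding. The windows of 5 members whose levels differed most clearly between embedding times, or that share a start region with a neighbour, are shown 5′ to 3′ on the gene's strand, with every CpG in capitals:
Peg12 promoter, chr7:62464461-62464760, strand minus: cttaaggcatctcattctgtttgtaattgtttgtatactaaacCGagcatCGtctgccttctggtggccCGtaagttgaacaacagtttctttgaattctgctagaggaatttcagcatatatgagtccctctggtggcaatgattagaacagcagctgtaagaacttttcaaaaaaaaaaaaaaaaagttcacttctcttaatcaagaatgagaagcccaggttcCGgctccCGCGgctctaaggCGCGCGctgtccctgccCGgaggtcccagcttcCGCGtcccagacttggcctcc
Nap1l5 promoter, chr6:58907077-58907376, strand minus: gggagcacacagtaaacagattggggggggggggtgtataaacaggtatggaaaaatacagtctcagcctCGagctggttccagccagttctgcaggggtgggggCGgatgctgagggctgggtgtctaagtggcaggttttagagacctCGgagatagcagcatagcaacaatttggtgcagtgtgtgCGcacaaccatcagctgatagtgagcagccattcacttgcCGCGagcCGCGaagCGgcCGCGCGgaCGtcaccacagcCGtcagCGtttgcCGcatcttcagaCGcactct
Mest promoter, chr6:30737800-30738099, strand plus: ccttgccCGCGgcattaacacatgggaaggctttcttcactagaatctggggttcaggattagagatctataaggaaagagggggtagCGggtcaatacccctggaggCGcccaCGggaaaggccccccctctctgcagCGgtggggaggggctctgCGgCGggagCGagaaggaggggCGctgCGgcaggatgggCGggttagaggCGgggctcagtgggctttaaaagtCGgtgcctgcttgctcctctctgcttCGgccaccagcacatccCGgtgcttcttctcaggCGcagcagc
Asb4 promoter, chr6:5390160-5390459, strand plus: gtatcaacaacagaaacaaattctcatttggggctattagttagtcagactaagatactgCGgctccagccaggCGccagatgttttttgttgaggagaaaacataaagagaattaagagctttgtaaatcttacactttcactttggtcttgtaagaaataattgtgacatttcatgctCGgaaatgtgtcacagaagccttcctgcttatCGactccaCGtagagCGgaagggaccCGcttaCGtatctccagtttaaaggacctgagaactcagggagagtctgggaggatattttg
Peg3 promoter, chr7:6730370-6730669, strand minus: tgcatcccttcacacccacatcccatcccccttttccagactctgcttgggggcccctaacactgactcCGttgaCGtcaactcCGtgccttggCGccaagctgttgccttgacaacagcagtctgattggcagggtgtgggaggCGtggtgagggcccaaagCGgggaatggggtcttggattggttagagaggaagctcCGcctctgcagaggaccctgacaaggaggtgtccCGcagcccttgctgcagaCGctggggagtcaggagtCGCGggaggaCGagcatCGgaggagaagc

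The *Peg12* and *Asb4* windows, from genes that were higher after embedding at 72 h, held 12 and 8 CpG and no TGCCGC. In the *Mest* window, from a gene that was lower, 17 CpG stood among 62.7% GC. *Nap1l5*, also higher, had 17 CpG in a window of 57.7% GC. The *Peg3* window shares 263 bases with that of *Usp29*, which starts on the opposite strand 161 bases away.

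Embedding at 72 h rather than 96 h was compared first within each gel, with edgeR's quasi-likelihood test fitted on all genes, and a gene is said to have passed at a Benjamini-Hochberg adjusted p below 0.05. At 1.0 mM, 9 of the 32 members tested passed (28.1%), where 9.24% of all 15763 genes tested did. *Igf2*, *Cdkn1c*, *Phlda2*, *Peg10*, *Sgce*, *Asb4*, *Peg12* and *Nap1l5* were higher after embedding at 72 h (8 members, against 5.97% of all genes), and *Mest* was lower (1 member, against 3.27%). *Phlda2*, *Peg10* and *Asb4* also changed by more than 1 on the log2 scale (3 members, against 4.30% of all genes). For 15 members no library of 72 h fell within the range of 96 h (13 higher and 2 lower), as was so for 28.0% of all genes. Across the members tested, the median log2 fold change was 0.25, beside -0.01 over all genes tested.

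In 1.5 mM gels, 11 of 32 members passed (34.4%, against 19.3% of 15683 genes). *Igf2*, *Igf2r*, *Sgce*, *Asb4*, *Peg12*, *Grb10*, *Impact* and *Nap1l5* were higher (8 members, against 10.4% of all genes), and *Kcnq1ot1*, *Peg3* and *Mest* were lower (3 members, against 8.98%). Of these, *Mest* changed by more than 1 on the log2 scale (1 member, against 3.18% of all genes). The ranges of the embedding times were separate for 13 members (10 higher and 3 lower) and for 39.5% of all genes. The median over the members was 0.03 and that over all genes -0.01. This count depended on single libraries: 7 members passed without replicate 2 or without replicate 3 of 72 h, 1.5 mM, and 5 without replicate 2 or without replicate 3 of 96 h, 1.5 mM. *Igf2*, *Igf2r*, *Mest*, *Peg12* and *Peg3* passed in all 4 of these fits. Without replicate 1 of 72 h, 1.5 mM, 13 members passed: *Asb4* was lost, and *H19*, *Mirg* and *Gnas* passed as lower.

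Both gels together, in a model with gel as a term over 12 libraries, gave 16 of 32 members past the test (50%, against 31.1% of 16388 genes). The 11 that were higher after embedding at 72 h (against 16.2% of all genes) were *Igf2*, *Cdkn1c*, *Phlda2*, *Igf2r*, *Peg10*, *Sgce*, *Asb4*, *Peg12*, *Grb10*, *Impact* and *Nap1l5*. The 5 that were lower (against 14.8%) were *Kcnq1ot1*, *Peg3*, *Mest*, *Nnat* and *Gnas*. *Phlda2* and *Asb4* changed by more than 1 on the log2 scale (2 members, against 4.66% of all genes). Libraries of the embedding times stood apart in the same direction in both gels for 7 members that were higher (*Igf2*, *Igf2r*, *Sgce*, *Asb4*, *Peg12*, *Grb10* and *Nap1l5*) and for *Mest*, which was lower, while 15.9% of all genes tested did so. Leaving out each library in turn gave 13 to 17 members past the test.

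**Figure D2:**
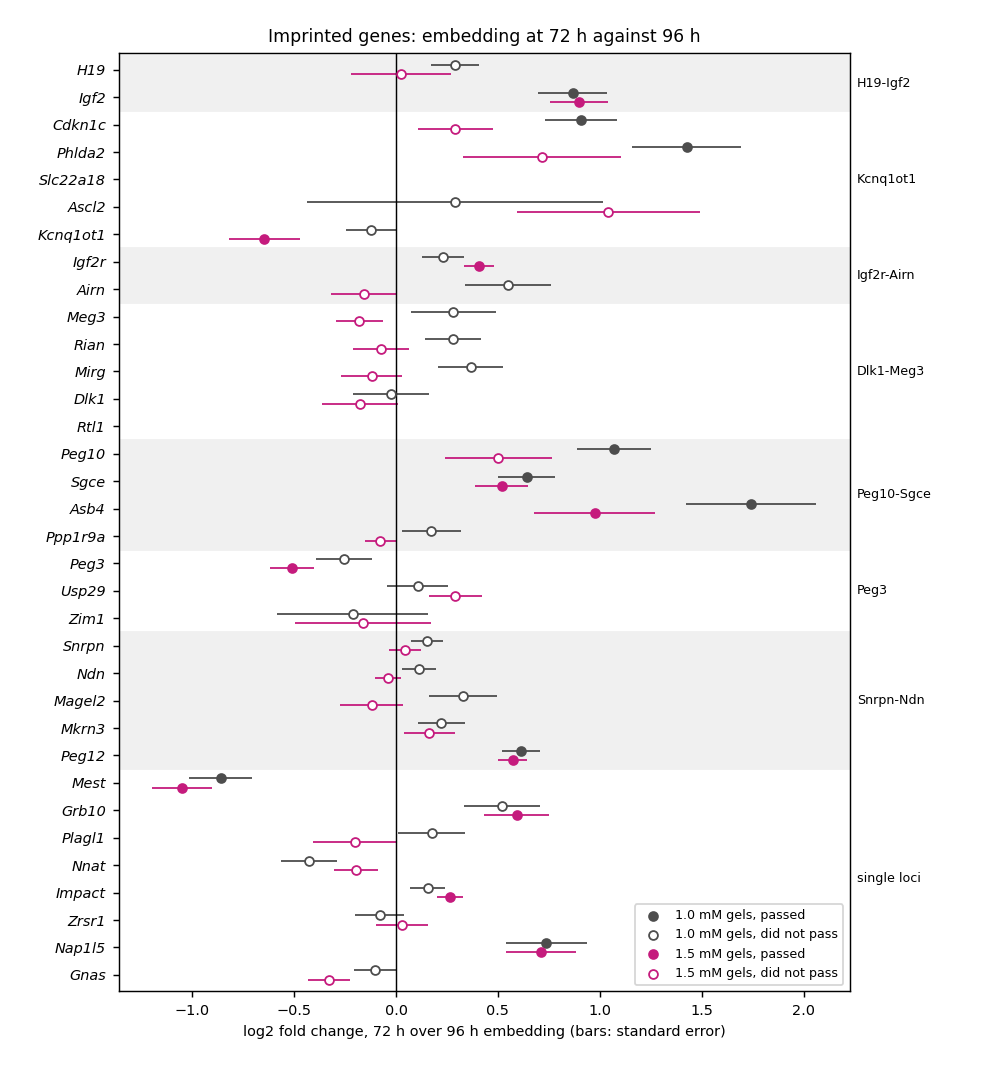
Log2 fold change of each imprinted gene, 72 h over 96 h embedding, in 1.0 mM gels (grey) and 1.5 mM gels (magenta), with the standard error as bars; filled points passed the edgeR test at an adjusted p below 0.05. *Igf2*, *Sgce*, *Asb4*, *Peg12* and *Nap1l5* passed as higher and *Mest* as lower in both gels.

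Marker genes of other tissues moved with embedding time beside the members. All 6 cardiac and anterior mesoderm markers tested passed as higher after embedding at 72 h in 1.0 mM gels (against 5.97% of all genes), with a median log2 fold change of 2.55. In 1.5 mM gels 5 of 6 did (against 10.4%), with a median of 1.13. Their summed level was 369 to 606 CPM at 72 h and 54.0 to 135 CPM at 96 h in 1.0 mM gels, and 300.3 to 534 CPM against 134 to 212 CPM in 1.5 mM gels. Replicate 1 of 72 h had the highest sum of this list in either gel. Somite markers went the other way, with 5 of 5 lower in 1.0 mM gels and 4 of 5 in 1.5 mM gels (against 3.27% and 8.98% of all genes). Their summed level was 109 to 248 CPM over the 6 libraries of 72 h and 384 to 618 CPM over those of 96 h. So did naive pluripotency markers, with 5 of 7 lower in each gel (against the same shares), at 31.8 to 43.3 CPM against 83.9 to 141 CPM. The summed level of posterior and neuromesodermal markers was higher after embedding at 72 h, at 286 to 360.3 CPM against 131 to 188 CPM in 1.0 mM gels and 246 to 286 CPM against 119 to 129.8 CPM in 1.5 mM gels. *T* (brachyury) made up most of this sum, with a mean of 160 CPM over all libraries, beside 28.5 for *Cyp26a1* and 20.9 for *Fgf8*. The sum therefore follows *T* more than the list. Of 5 tested, 3 had positive estimates in each gel, with medians of 0.36 at 1.0 mM and 0.16 at 1.5 mM. *T* and *Cyp26a1* passed as higher in both gels (against 5.97% and 10.4% of all genes), with log2 fold changes of 1.17 ± 0.14 and 0.85 ± 0.13 at 1.0 mM. *Nkx1-2* passed as lower at 1.0 mM (-2.29 ± 0.34). Among yolk sac endoderm markers, *Hnf4a* and *Ttr* passed as higher of 3 tested in 1.0 mM gels (against 5.97% of all genes). None did in 1.5 mM gels, and the summed level was at most 12.3 CPM. The other lists tested were mixed. Of 5 neural tube markers, *Irx3* was higher and *Sox2* lower in both gels, and *Pax6* was higher at 1.0 mM. Of 5 endothelium markers, *Kdr* was higher at 1.0 mM and *Cldn5* lower in both gels. Of 5 endoderm markers, *Foxa2* was higher in both gels and *Sox17* lower at 1.5 mM. Of 4 presomitic mesoderm markers, *Hes7* was lower at 1.0 mM and *Rspo3* higher at 1.5 mM. In bulk libraries, more cells of a type and more RNA per cell cannot be told apart, and the part that these tissues had in the members' differences was not tested.

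The *Peg10*-*Sgce* cluster on chromosome 6 held the largest rise among the members, that of *Asb4*. Of its 4 members, 3 passed as higher across both gels, and the median log2 fold change of the 4 was 0.68. *Asb4* (chr6:5383386-5433022 in mm10, the build of all coordinates below), a maternally expressed gene for an ankyrin repeat protein of a ubiquitin ligase, had 39.1, 23.8 and 16.0 CPM when embedded at 72 h and 9.72, 9.18 and 4.64 CPM at 96 h with a gel of 1.0 mM. With 1.5 mM the values were 27.9, 20.0 and 16.2 CPM and 15.8, 10.2 and 6.40 CPM. Every library of 72 h was above every library of 96 h. Between gels the gap was narrow, with 16.0 CPM lowest at 72 h (1.0 mM) and 15.8 CPM highest at 96 h (1.5 mM). The log2 fold change was 1.74 ± 0.32 (SE) in 1.0 mM gels (edgeR adjusted p = 0.00647), 0.97 ± 0.30 in 1.5 mM gels (adjusted p = 0.0484) and 1.35 ± 0.27 over both (adjusted p = 0.0016). The call at 1.5 mM was lost with DESeq2 (adjusted p = 0.0913), with upper quartile scaling (0.0569), and on leaving out any library except replicate 1 of 96 h (adjusted p up to 0.14, without replicate 2 of 96 h). On log2(FPKM + 1), limma passed *Asb4* neither in 1.0 mM gels (adjusted p = 0.0618) nor in 1.5 mM gels (adjusted p = 0.0748). Its call over both gels held in every alternative.

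*Peg10* (chr6:4747306-4760517) and *Sgce* (chr6:4674350-4747207) are paternally expressed and start 98 bases apart on opposite strands. *Peg10* had 2635, 1627 and 2139.7 CPM at 72 h and 1176, 1072 and 795 CPM at 96 h in 1.0 mM gels, where the groups did not overlap. With 1.5 mM, it had 2732, 1518 and 1435 CPM at 72 h and 1746, 1275 and 984 CPM at 96 h, where replicate 1 of 96 h lay above replicates 2 and 3 of 72 h. The log2 fold change was 1.07 ± 0.18 in 1.0 mM gels (edgeR adjusted p = 0.00404), 0.50 ± 0.26 in 1.5 mM gels, which did not pass (adjusted p = 0.207), and 0.78 ± 0.19 over both (adjusted p = 0.0064). *Sgce*, which encodes epsilon-sarcoglycan, had 75.7, 60.1 and 52.8 CPM at 72 h and 47.1, 37.0 and 36.6 CPM at 96 h in 1.0 mM gels. Its values in 1.5 mM gels were 77.3, 59.8 and 60.6 CPM and 51.6, 47.6 and 38.5 CPM, so that the embedding times stood apart in either gel. *Sgce* passed in both gels, with log2 fold changes of 0.64 ± 0.14 (edgeR adjusted p = 0.0159) and 0.52 ± 0.13 (adjusted p = 0.0245). Without replicate 2 or replicate 3 of 96 h the adjusted p was 0.0794 and 0.0792 in 1.0 mM gels, and 0.0693 and 0.0813 in 1.5 mM gels, while over both gels (0.58 ± 0.10, adjusted p = 0.000897) the call held in every alternative.

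*Ppp1r9a*, the maternally expressed neurabin gene of the same cluster, did not pass in any comparison, with log2 fold changes of 0.17 ± 0.14 and -0.08 ± 0.07 in gels of 1.0 and of 1.5 mM. *Asb4* and *Ppp1r9a* are known to be imprinted mainly in extra-embryonic tissues, and whether either allele was silent here was not measured.

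On distal chromosome 7, the *Kcnq1ot1* cluster held 2 genes that passed as higher and a non-coding RNA that passed as lower across both gels. In no single gel did both kinds of call occur: the 2 genes passed at 1.0 mM and the RNA at 1.5 mM. *Phlda2* (chr7:143501545-143502993), a maternally expressed pleckstrin homology protein gene known to restrain placental growth, had 4.50, 6.13 and 3.88 CPM at 72 h and 1.75, 2.37 and 1.28 CPM at 96 h in 1.0 mM gels. Those groups stood apart, while in 1.5 mM gels 6.06, 3.42 and 1.74 CPM at 72 h overlapped 1.86, 2.74 and 2.20 CPM at 96 h. The gene passed in 1.0 mM gels (1.43 ± 0.27, edgeR adjusted p = 0.00692) and over both gels (1.07 ± 0.26, adjusted p = 0.00691), but not in 1.5 mM gels alone (0.72 ± 0.39, adjusted p = 0.223). It is a low gene, with 35 to 150 counts per library.

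*Cdkn1c* (chr7:143458339-143461050), the maternally expressed gene of the p57 cell cycle inhibitor, had 31.3, 24.0 and 28.4 CPM at 72 h and 18.8, 14.9 and 10.9 CPM at 96 h in 1.0 mM gels, without overlap. At 1.5 mM its values were 27.5, 21.6 and 15.5 CPM at 72 h and 18.0, 19.2 and 15.5 CPM at 96 h, with replicate 3 of 72 h as low as the lowest library of 96 h. It passed in 1.0 mM gels (0.91 ± 0.18, edgeR adjusted p = 0.00888) and over both (0.60 ± 0.16, adjusted p = 0.0105). The estimate in 1.5 mM gels was 0.29 ± 0.18 (adjusted p = 0.295), and the difference between the gels was not past the test of the interaction (-0.61 ± 0.28, adjusted p = 0.953).

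*Kcnq1ot1* (chr7:143203458-143296549), the paternally expressed non-coding RNA that is known to silence this cluster on the paternal allele, had 79.9, 49.5 and 47.4 CPM at 72 h and 95.1, 84.2 and 97.2 CPM at 96 h in 1.5 mM gels. Replicate 1 of 72 h came close to the libraries of 96 h, and no library overlapped. With 1.0 mM, 79.3, 73.8 and 65.6 CPM at 72 h overlapped 95.4, 67.3 and 74.6 CPM at 96 h. The gene passed as lower in 1.5 mM gels (-0.65 ± 0.17, edgeR adjusted p = 0.0314) and over both (-0.38 ± 0.13, adjusted p = 0.0405), and not in 1.0 mM gels (-0.12 ± 0.13, adjusted p = 0.609). Both calls depended on the setting: with DESeq2 the adjusted p in 1.5 mM gels was 0.0648, and leaving out any library of that comparison except replicate 1 of 72 h gave 0.0645 to 0.1. Over both gels 7 of the 12 libraries ended the call when left out (adjusted p up to 0.0932, without replicate 2 of 72 h, 1.5 mM). On log2(FPKM + 1), limma passed *Kcnq1ot1* neither in 1.5 mM gels (-0.25 ± 0.09, adjusted p = 0.122) nor over both (-0.15 ± 0.06, adjusted p = 0.0958). *Ascl2* of this cluster, at 1 to 21 counts, had log2 fold changes of 0.29 ± 0.73 at 1.0 mM and 1.04 ± 0.45 at 1.5 mM, and neither passed (adjusted p = 0.857 and 0.13).

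The neighbouring *H19*-*Igf2* cluster showed a rise of *Igf2* without a matching call for *H19*. *Igf2* (chr7:142650766-142666816) is the paternally expressed fetal growth factor, and in read counts it had 244, 143 and 230.0 CPM at 72 h and 128, 103 and 106 CPM at 96 h in 1.0 mM gels. At 1.5 mM the counts gave 206, 141 and 149.6 CPM and 99.6, 87.5 and 78.9 CPM, so every library of 72 h was above every library of 96 h in the same gel. The log2 fold changes were 0.87 ± 0.17 (edgeR adjusted p = 0.00871), 0.90 ± 0.14 (adjusted p = 0.00492) and, over both gels, 0.88 ± 0.12 (adjusted p = 0.000117). These calls were not seen in FPKM, as given below. *H19*, the maternally expressed non-coding RNA that shares enhancers with *Igf2*, had 1215, 575 and 604 CPM at 72 h with 1.5 mM, where replicate 1 was the highest of the 12 libraries, and 640.2 to 1049 CPM in the other 3 groups. Its log2 fold change was 0.29 ± 0.12 in 1.0 mM gels and 0.02 ± 0.25 in 1.5 mM gels, and neither passed (edgeR adjusted p = 0.173 and 0.956). Without replicate 1 of 72 h, 1.5 mM, *H19* passed as lower at 1.5 mM.

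At the *Igf2r*-*Airn* cluster on chromosome 17, *Igf2r* (chr17:12682406-12769664), the maternally expressed receptor that clears IGF2, had 71.0, 78.8 and 78.1 CPM at 72 h and 58.3, 59.9 and 53.3 CPM at 96 h in 1.5 mM gels. The values in 1.0 mM gels were 73.8, 62.3 and 62.4 CPM and 56.3, 50.6 and 62.0 CPM, and the embedding times stood apart in both gels, in 1.0 mM gels by less than 1 CPM. *Igf2r* passed in 1.5 mM gels (0.41 ± 0.07, edgeR adjusted p = 0.00772) and over both (0.32 ± 0.07, adjusted p = 0.00295). With 1.0 mM, the estimate was 0.23 ± 0.10 (adjusted p = 0.21). *Airn*, the paternally expressed antisense RNA of this locus, had 0.55 ± 0.21 in 1.0 mM gels and -0.16 ± 0.16 in 1.5 mM gels and did not pass (adjusted p = 0.145 and 0.526).

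*Peg12* gave the smallest adjusted p of all members in each comparison of embedding times. It lies in the *Snrpn*-*Ndn* cluster on chromosome 7 (chr7:62461871-62464510), the region of Prader-Willi syndrome in humans, and is a paternally expressed gene of the FRAT family. Its values were 73.7, 83.8 and 79.8 CPM at 72 h and 56.4, 52.1 and 46.2 CPM at 96 h in 1.0 mM gels. At 1.5 mM they were 73.5, 77.7 and 76.0 CPM and 53.2, 52.2 and 47.1 CPM. All 6 libraries of 72 h lay above all 6 of 96 h, with a gap wider than the range within any group. The log2 fold change was 0.61 ± 0.09 in 1.0 mM gels (edgeR adjusted p = 0.00238), 0.57 ± 0.07 in 1.5 mM gels (adjusted p = 0.00259) and 0.59 ± 0.06 over both (adjusted p = 5.82e-06). Leaving out any library kept the value over both gels between 0.56 and 0.62.

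The other members of this cluster did not pass. Across both gels the log2 fold changes of *Snrpn*, a splicing protein gene, *Ndn*, which encodes necdin, *Magel2* and *Mkrn3* were 0.10 ± 0.05, 0.04 ± 0.05, 0.10 ± 0.13 and 0.19 ± 0.08, with edgeR adjusted p values of 0.0804 for *Mkrn3* and up to 0.628 for *Ndn*. *Ndn* had 150.1 to 187 CPM in the 12 libraries. On FPKM *Snrpn* passed over both gels, with limma giving 0.19 ± 0.05 on log2(FPKM + 1) (adjusted p = 0.0113).

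*Peg3* (chr7:6703892-6730421), a paternally expressed zinc finger gene on proximal chromosome 7, was lower after embedding at 72 h. It had 1937, 1724 and 1764 CPM at 72 h and 2779.5, 2762 and 2173 CPM at 96 h in 1.5 mM gels, without overlap. With 1.0 mM, 2324, 1617 and 1778 CPM at 72 h overlapped 2414, 2052 and 2343 CPM at 96 h, since replicate 1 of 72 h exceeded replicate 2 of 96 h. The gene passed in 1.5 mM gels (-0.51 ± 0.11, edgeR adjusted p = 0.0121) and over both (-0.38 ± 0.10, adjusted p = 0.0079), and not in 1.0 mM gels (-0.26 ± 0.14, adjusted p = 0.31). *Usp29*, the paternally expressed gene whose start lies in the *Peg3* window printed above, did not pass and its estimates had the other sign (0.11 ± 0.15 in 1.0 mM and 0.29 ± 0.13 in 1.5 mM gels). *Zim1*, maternally expressed and low (22 to 79 counts), had -0.19 ± 0.26 over both gels (adjusted p = 0.623).

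Of the members at loci of their own, *Mest* (chr6:30723547-30748465), a paternally expressed gene of the hydrolase fold family that marks mesoderm, fell most. It had 905, 618 and 1020.2 CPM at 72 h and 1464, 1577 and 1558 CPM at 96 h in 1.0 mM gels, and 837, 575 and 642 CPM and 1392, 1201 and 1657 CPM in 1.5 mM gels. No library of 72 h reached a library of 96 h. The log2 fold change was -0.86 ± 0.15 in 1.0 mM gels (edgeR adjusted p = 0.00565), -1.05 ± 0.15 in 1.5 mM gels (adjusted p = 0.00344) and -0.96 ± 0.12 over both (adjusted p = 4.46e-05), and each call held without any single library. *Copg2* overlaps 23.1% of the exon bases of *Mest* on the opposite strand. Among single-transcript genes above a floor of counts and FPKM, 34 under an opposite-strand neighbour had counts as near to their FPKM as those without one. *Copg2*, at 0 FPKM in all 12 libraries, could not enter that check.

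*Nap1l5* (chr6:58905233-58907076), a paternally expressed retrogene related to nucleosome assembly proteins, rose. Its values were 8.70, 9.08 and 7.35 CPM at 72 h and 5.92, 5.51 and 3.62 CPM at 96 h in 1.0 mM gels. At 1.5 mM they were 7.35, 6.21 and 6.47 CPM and 4.46, 3.26 and 4.48 CPM, with the 72 h libraries above the 96 h libraries in each gel. It passed in both gels, with 0.74 ± 0.20 (edgeR adjusted p = 0.0405) and 0.71 ± 0.17 (adjusted p = 0.0218), and over both (0.72 ± 0.13, adjusted p = 0.000842). With 1.0 mM, the call was lost without replicate 1 or 2 of 72 h or replicate 2 or 3 of 96 h (adjusted p up to 0.147). At 1.5 mM it was lost without replicate 3 of 72 h or replicate 2 or 3 of 96 h (up to 0.0778). The call over both gels held in every alternative.

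*Grb10*, a maternally expressed adaptor that dampens insulin and IGF signalling and switches to the paternal allele in neurons (chr11:11930508-12038683), had 13.6, 11.4 and 9.62 CPM at 72 h and 8.17, 6.52 and 8.17 CPM at 96 h in 1.5 mM gels. With 1.0 mM, the values were 10.6, 10.6 and 13.1 CPM and 7.78, 6.08 and 10.0 CPM. The groups did not overlap in either gel, though replicate 3 of 96 h, 1.0 mM lay near those of 72 h. *Grb10* passed in 1.5 mM gels (0.59 ± 0.16, edgeR adjusted p = 0.0316) and over both (0.56 ± 0.13, adjusted p = 0.00413), with 0.52 ± 0.19 in 1.0 mM gels (adjusted p = 0.116). The call in 1.5 mM gels was lost without replicate 2 of 72 h or any replicate of 96 h (adjusted p up to 0.116).

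*Impact*, a paternally expressed regulator of translation under amino acid stress, moved by a small amount. It had 271, 304 and 313 CPM at 72 h and 245, 248 and 244 CPM at 96 h in 1.5 mM gels, and 237, 274 and 267 CPM and 215, 238 and 243 CPM in 1.0 mM gels, where the groups overlapped. The log2 fold change was 0.27 ± 0.07 in 1.5 mM gels (edgeR adjusted p = 0.0224) and 0.21 ± 0.05 over both (adjusted p = 0.00864). Leaving out any library but replicate 1 of 72 h ended the call in 1.5 mM gels (adjusted p up to 0.0878).

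*Nnat* and *Gnas* passed as lower in the model over both gels and, with all libraries in the edgeR fit, in neither gel alone. *Nnat* (chr2:157560078-157562522) had 1097, 1429 and 1660.2 CPM at 72 h and 1888, 1939.7 and 1794 CPM at 96 h in 1.0 mM gels, without overlap, and 1287, 1701 and 1663 CPM and 1710.4, 1685 and 1924 CPM in 1.5 mM gels, with overlap. Its log2 fold change over both was -0.31 ± 0.10 (edgeR adjusted p = 0.0244), and the adjusted p was 0.0511 without replicate 1 of 96 h, 1.0 mM and 0.0533 without replicate 3 of 96 h, 1.5 mM. *Gnas* (chr2:174284320-174346744) had 1894, 2010.3 and 2197 CPM at 72 h and 2183, 2313 and 2039 CPM at 96 h in 1.0 mM gels, with overlap. With 1.5 mM it had 2089, 1713 and 1658 CPM and 2312, 2446 and 2087 CPM, where replicate 1 of 72 h just exceeded the lowest library of 96 h. The change over both was -0.22 ± 0.07 (adjusted p = 0.0399), and 7 of the 12 libraries ended this call when left out (adjusted p up to 0.0952, without replicate 2 of 72 h, 1.5 mM or replicate 2 of 96 h, 1.5 mM). On log2(FPKM + 1), limma also passed *Gnas* at 1.5 mM (-0.37 ± 0.08, adjusted p = 0.0426). *Plagl1*, a zinc finger growth regulator gene, and *Zrsr1*, a splicing factor gene, did not pass, with -0.02 ± 0.15 and -0.02 ± 0.09 over both gels.

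**Figure D3:**
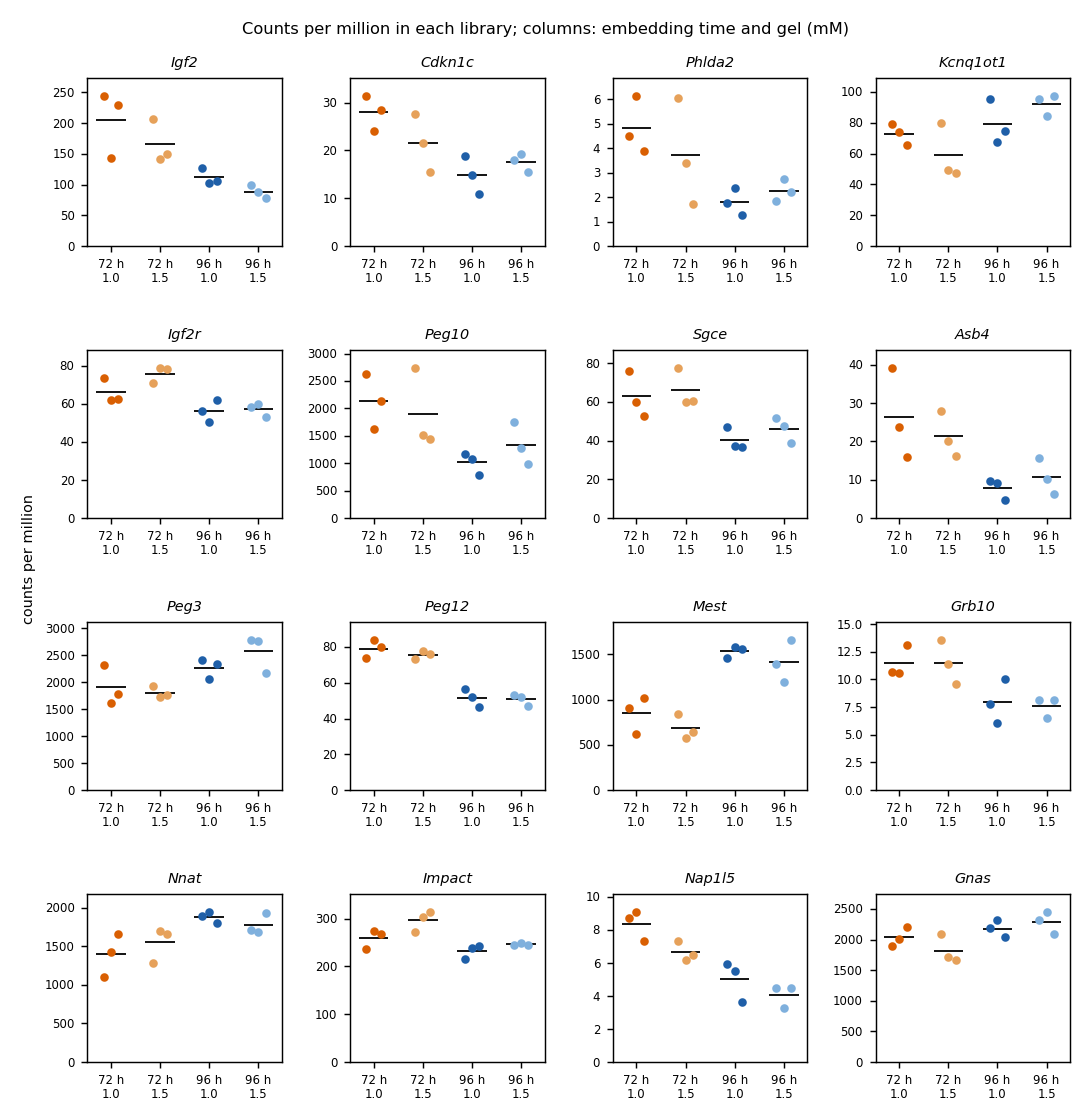
CPM (TMM-scaled) of the 16 imprinted genes that passed across both gels, a panel per gene with an axis from 0; points are the 3 libraries of each group and lines their mean. In the *Peg12* and *Mest* panels the 6 libraries of 72 h stand well apart from the 6 of 96 h. The 2 sets also do not overlap, by a narrower gap, in the *Igf2*, *Igf2r*, *Sgce*, *Asb4* and *Nap1l5* panels.

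The *Dlk1*-*Meg3* cluster on chromosome 12 had a median log2 fold change of 0.08 over both gels in the counts. Of its 4 tested members, 0 passed in any of the 7 comparisons with edgeR, and 1, *Mirg*, had an unadjusted p below 0.05 for embedding time, at 1.0 mM (adjusted p = 0.201). Without replicate 1 of 72 h, 1.5 mM, *Mirg* passed as lower at 1.5 mM. *Meg3*, *Rian* and *Mirg* are maternally expressed non-coding RNAs, the last of them a host of many microRNAs, and *Dlk1* is a paternally expressed Notch-like ligand. With 1.0 mM, their log2 fold changes were 0.28 ± 0.21, 0.28 ± 0.14, 0.37 ± 0.16 and -0.03 ± 0.19, and in 1.5 mM gels -0.18 ± 0.12, -0.07 ± 0.14, -0.12 ± 0.15 and -0.18 ± 0.19. The 3 non-coding RNAs thus had positive estimates in 1.0 mM gels and negative ones in 1.5 mM gels, a difference that did not pass the interaction test (adjusted p = 0.953 for *Mirg*).

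By expressed allele, the 12 maternally expressed members tested held 5 that passed as higher across both gels and 0 that passed as lower, where 16.2% of all genes passed as higher and 14.8% as lower, and their median log2 fold change was 0.24. The 19 paternally expressed members tested held 6 higher and 4 lower, with a median of 0.10. *Gnas*, the isoform-dependent member, was lower. At 1.0 mM the medians were 0.29 for maternal and 0.16 for paternal members, and in 1.5 mM gels 0.16 and 0.03. The maternal members that rose (*Cdkn1c*, *Phlda2*, *Igf2r*, *Asb4* and *Grb10*) lie at 4 different loci on chromosomes 6, 7, 11 and 17. The paternal members that fell were *Kcnq1ot1*, *Peg3*, *Mest* and *Nnat*. These calls are from counts. On log2(FPKM + 1), limma passed the same 5 maternal members as higher across both gels. It also passed the maternal *Meg3* as lower (-0.51 ± 0.15, adjusted p = 0.0305). In counts without replicate 1 of 72 h, 1.5 mM, the maternal *H19* and *Mirg* passed as lower at 1.5 mM. Counts and medians are given as a description, and the difference between the classes was not tested.

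Members were compared between gel concentrations at each embedding time. With edgeR and no block, 0 of 32 passed between 1.5 mM and 1.0 mM gels at 72 h and 0 of 31 at 96 h, and 0% of all genes passed in each of these comparisons. At an unadjusted p below 0.05 there were 2 members in each, and DESeq2 and limma-voom passed 0. Across both embedding times 0 of 32 passed (against 0.0305% of all genes, with 5 members at an unadjusted p below 0.05), limma-voom passed 0 and DESeq2 passed *Zrsr1* alone. *Zrsr1* had the smallest adjusted p here, with 18.7, 24.4 and 27.0 CPM in 1.5 mM and 18.3, 19.3 and 15.3 CPM in 1.0 mM gels at 72 h. The values at 96 h were 21.5, 23.6 and 23.6 CPM and 17.8, 19.5 and 18.4 CPM and did not overlap, while at 72 h replicate 1 of the 1.5 mM gels lay below the highest library of 1.0 mM. Its log2 fold change over both embedding times was 0.35 ± 0.09 (edgeR adjusted p = 0.158), and it passed with edgeR without replicate 1 of 72 h, 1.5 mM, where 1 member passed in place of 0. *Commd1* overlaps 9.17% of the exon bases of *Zrsr1* on the opposite strand.

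*Igf2* had the smallest adjusted p at 96 h, with -0.35 ± 0.10 for 1.5 mM over 1.0 mM (edgeR adjusted p = 0.299), and the groups did not overlap. *Mirg* at 72 h had -0.48 ± 0.19 (adjusted p = 0.701). Median log2 fold changes over the members were -0.16 at 72 h, 0.05 at 96 h and -0.04 over both, while the medians of all genes tested were within 0.01 of 0. All 4 tested members of the *Dlk1*-*Meg3* cluster had negative estimates at 72 h, with a median of -0.36, and all 4 of the *Peg10*-*Sgce* cluster positive ones at 96 h, with a median of 0.29. None of these passed in that fit. With replicate number as a block, *Igf2* and *Peg10* passed at 96 h, so the absence of calls there depends on leaving out the block.

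The interaction, which asks whether the effect of embedding time differed between gels, passed for 0 of 32 members and 0% of all genes, with 2 members (*Airn* and *Kcnq1ot1*) at an unadjusted p below 0.05 and 0 members passing with DESeq2 or limma-voom. *Airn* had -0.70 ± 0.30 and *Kcnq1ot1* -0.51 ± 0.24 (edgeR adjusted p = 0.953 for both). The median standard error of the members' interaction estimates was 0.24 on the log2 scale, so small differences between gels were not detectable with these replicates. A call in a single gel, as for *Peg10* or *Peg3*, is therefore not shown to be particular to that gel.

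**Figure D4:**
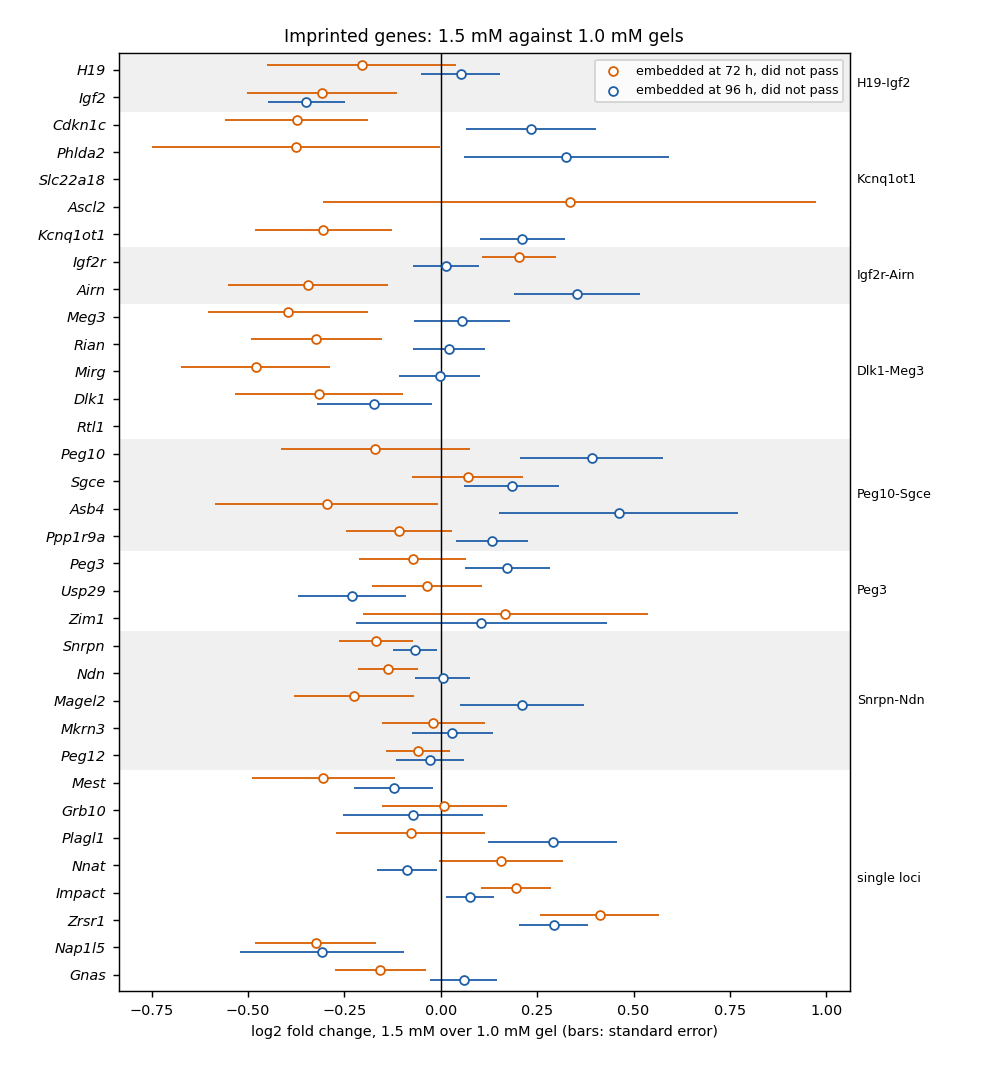
Log2 fold change of each imprinted gene, 1.5 mM over 1.0 mM gel, for gastruloids embedded at 72 h (orange) and 96 h (blue), with the standard error as bars. No point passed the edgeR test without a replicate block, and every estimate lies between -0.5 and 0.5.

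The deposited table of FPKM gave a second quantification of the same reads, and *Igf2* and *Meg3* are given here in both. *Igf2* had 1080.1, 870.2 and 1031 FPKM at 72 h and 918, 844 and 702 FPKM at 96 h in 1.0 mM gels. With 1.5 mM, it had 991, 638 and 619.9 FPKM at 72 h and 827, 747 and 823 FPKM at 96 h, where replicate 1 of 72 h was the highest and replicates 2 and 3 the lowest. On log2(FPKM + 1), limma gave 0.28 ± 0.13 in 1.0 mM gels (adjusted p = 0.262) and -0.12 ± 0.17 in 1.5 mM gels (adjusted p = 0.695), against the edgeR rise of 0.90 there. The counts and FPKM of *Igf2* together imply only 166 bases of counted exon, while its annotated exons cover 5723 bases, a ratio of 0.029 where genes with a single transcript and no overlapping exon had a median of 1.29. *Gm49394*, annotated on the same strand, shares 3596 bases or 62.8% of the *Igf2* exons, and its own mean was 4.58 counts per library. The counts of *Igf2* are thus uncertain, and so is its rise in them.

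*Meg3*, whose FPKM are shown after they were seen, separated the embedding times in FPKM at 1.5 mM and not at 1.0 mM. In FPKM it had 254, 223 and 229 at 72 h and 453, 448 and 413 at 96 h in 1.5 mM gels, with every library of 72 h lower. At 1.0 mM its FPKM of 423, 451 and 272 at 72 h overlapped 452, 386 and 382 at 96 h (limma -0.12 ± 0.19, adjusted p = 0.752). In CPM the libraries of 1.5 mM had 749, 623 and 601 and 782, 820.3 and 628, with overlap. limma gave -0.89 ± 0.08 on log2(FPKM + 1) in 1.5 mM gels (adjusted p = 0.003) and -0.51 ± 0.15 over both (adjusted p = 0.0305), against -0.18 ± 0.12 and 0.05 ± 0.15 in counts. Its counts and FPKM imply 1992 bases of the 18089 annotated, a ratio of 0.11. *Rian*, *Mirg*, *Gnas* and *Sgce* also had low ratios, of 0.15 to 0.20. On FPKM, 4 members passed in 1.0 mM gels (against 4.05% of all genes), 7 in 1.5 mM gels (against 6.84%) and 14 over both gels (against 23.6%). *Mest* and *Peg12* were among those that passed in each gel on this scale. Members called in counts that did not pass on it were *Igf2*, *Cdkn1c*, *Sgce*, *Asb4* and *Nap1l5* in 1.0 mM gels. In 1.5 mM gels they were *Igf2*, *Igf2r*, *Asb4*, *Grb10*, *Impact* and *Kcnq1ot1*, and over both gels *Igf2*, *Kcnq1ot1*, *Nnat* and *Impact*.

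**Figure D5:**
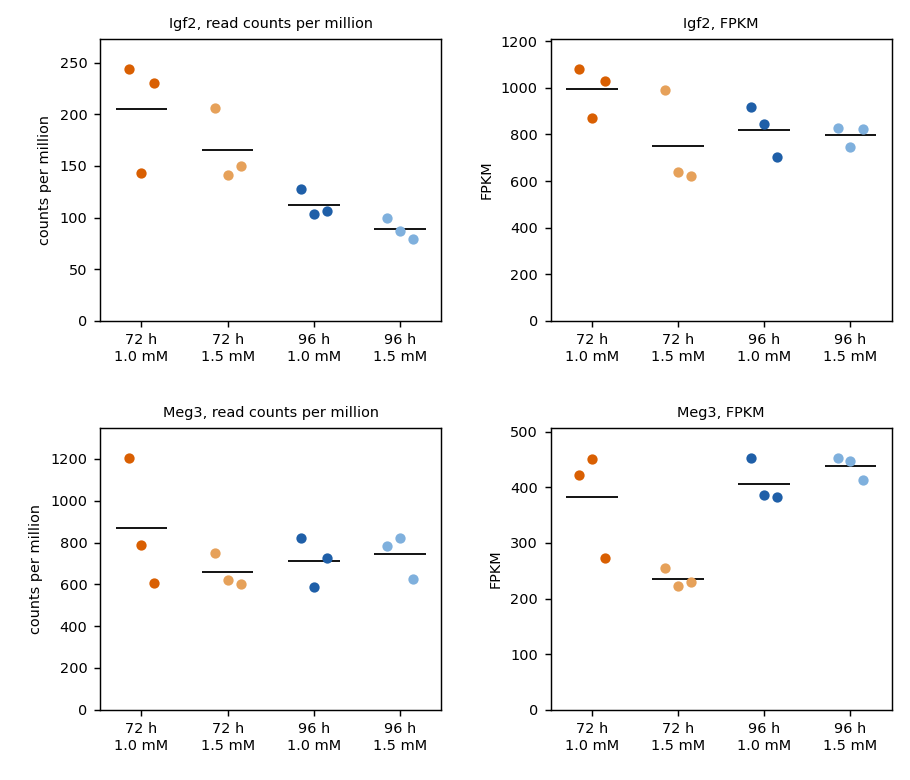
*Igf2* (top) and *Meg3* (bottom) in each library as CPM from read counts (left) and as FPKM (right), with axes from 0; points are libraries and lines group means. *Igf2* separates the embedding times in counts and not in FPKM, while *Meg3* in 1.5 mM gels separates them in FPKM and not in counts.

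Genes that set, read or erase imprints passed in both directions, with a median near 0. Of 16 listed regulators, 15 were tested in 1.0 mM gels and 1 passed (against 9.24% of all genes), *Dnmt3l*, a cofactor of de novo DNA methylation, as lower (-2.36 ± 0.39, edgeR adjusted p = 0.00365). At 1.5 mM, 2 of 15 were higher and 2 lower (against 10.4% and 8.98% of all genes), and *Dnmt3l* again fell by more than 1 (-2.67 ± 0.42, adjusted p = 0.00442). Across both gels 3 of 16 were higher and 4 lower (against 16.2% and 14.8%), with *Dnmt3l* and *Dppa3*, which protects the maternal genome from demethylation in the zygote (-2.67 ± 0.45, adjusted p = 0.000484), past 1 on the log2 scale. Both are very low, with 3 to 61 and 1 to 33 counts. Both are known from naive pluripotent cells. Of the 7 naive pluripotency markers listed, 5 passed as lower across both gels, and *Klf4* and *Tfcp2l1* did not pass. A link between these falls was not tested. The list's median log2 fold change was -0.02 over both gels.

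In the IGF pathway, *Igf1*, another ligand of the same receptor as *Igf2*, fell in both gels, with log2 fold changes of -1.34 ± 0.29 at 1.0 mM (edgeR adjusted p = 0.0157) and -1.77 ± 0.33 at 1.5 mM (adjusted p = 0.00803). It had 48 to 473 counts per library. The 12 listed genes held 2 higher and 2 lower across both gels (against 16.2% and 14.8% of all genes), with a median of 0.07. A further list of imprinted genes outside the members had 25 of 26 in the table. Of the 19 tested in each gel, 1 was higher and 1 lower in 1.0 mM gels (against 5.97% and 3.27% of all genes). In 1.5 mM gels 3 were higher and 1 lower (against 10.4% and 8.98%). Over both gels 4 of 20 were higher and 3 lower (against 16.2% and 14.8%), with a median of 0.06, and none changed by more than 1. *Ube3a*, a ubiquitin ligase gene imprinted in neurons, had the smallest adjusted p of them (0.46 ± 0.08, adjusted p = 0.000964). In all 3 of these lists 0 genes passed between gels or in the interaction.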

How the data were processed

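The authors trimmed the reads with cutadapt 4.4, aligned them to mm10 with STAR 2.7.10b and an Ensembl annotation they had customized. The raw counts of each gene were deposited. The strand setting of the counts is not given in the sources used here. FPKM per gene were computed by the authors with Cufflinks 2.2.1.3 and deposited as a second table. Another deposited table holds the authors' own comparisons and was not used. Gene coordinates are those of mm10 (GENCODE annotation).

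Libraries were grouped by the labels. Counts were fitted in R 4.3.3 with edgeR 4.0.16 (TMM, filterByExpr set to 10 counts and 15 in total, glmQLFit and glmQLFTest) after 36 mitochondrial genes were left out, in 4 pairwise fits of 6 libraries, and on all 12 libraries for both main effects and their interaction. Adjusted p values are Benjamini-Hochberg over all genes tested. CPM are TMM-scaled. A log2 fold change is 72 h over 96 h, or 1.5 mM over 1.0 mM. On FPKM, limma 3.58.1 was run on log2(FPKM + 1) for genes with a mean of at least 0.1, and such fold changes understate low genes. With totals of 23011791 to 27609422 counts, the spread between replicates is the limit on precision for well-counted genes. For genes with few counts, such as *Ascl2* (1 to 21), counting noise also limits it.

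Strand was checked from the tables, in single-transcript genes above a floor of counts and FPKM. The exon length implied by counts and FPKM over that annotated was 1.27 at the median for 34 such genes with 30% or more of their exons under an opposite-strand gene. It was 1.29 for 843 without overlap. Replicates of a group differed beyond sampling noise (chi-square per degree of freedom 10.2 or more), so none was counted as a duplicate. The tests recovered known changes planted in simulated counts of well-counted genes, at a fixed dispersion and without outlying libraries. The planted changes were larger than most reported here, so the simulation does not bear on the smaller calls. Alternatives were DESeq2 1.42.0, limma-voom, RLE and upper quartile scaling, other filters, FPKM, a block and leaving out each library. The members and gene lists were chosen with earlier results of these data known. Every member is named; values of each library are given for those that passed in any comparison, and other genes are named only from fixed lists, except where stated.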

Additional observations from a re-analysis of the deposited data

How the results depend on the processing

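Embedding time in 1.0 mM gels passed 9 members. That count was 16 with no filter on low counts, 4 on log2(FPKM + 1), 0 on log2(FPKM + 0.1), 0 on log2(FPKM + 1) without a filter, and 7 to 11 leaving out a library. In 1.5 mM gels the 11 members became 7 on log2(FPKM + 1), 1 on log2(FPKM + 0.1), 2 on log2(FPKM + 1) without a filter, 4 at an adjusted p below 0.01, and 5 to 13 leaving out a library. Across both gels the 16 members stayed within 12 to 17 in all alternatives. Between gels, no filter on low counts passed 2 members at 72 h, 2 at 96 h, 4 across both embedding times and 5 in the interaction, where the other fits gave 0, apart from *Zrsr1* across both embedding times (1 member with DESeq2, and 0 to 1 leaving out a library) and the replicate block at 96 h. With replicate number as a block, 13, 13 and 16 members passed for embedding time in 1.0 mM gels, in 1.5 mM gels and across both, 0 and 2 for gel at 72 h and 96 h (*Igf2* and *Peg10*), 0 for gel across both and 0 in the interaction. Deviations from the group means correlated above 0.1 in 13 of 18 same-numbered pairs (0.0364 to 0.313, against -0.262 to 0.111 for other pairs). This is a hint from the data that the number marks shared variation, but not every pair passed 0.1 and not every library correlated best with its own number, so the fits without the block are the ones reported. *Igf2* in 1.5 mM gels changed sign on FPKM: -0.12 on log2(FPKM + 1) (adjusted p = 0.695), -0.13 on log2(FPKM + 0.1) (0.736) and -0.12 without a filter (0.807). Among the alternative values of single members that passed, 613 kept their direction and call, 112 kept the direction only and 3 changed sign. Over all genes, the 1457 calls at 1.0 mM became 2283 with no filter, 634, 343 and 255 on the 3 FPKM settings and 624 at 0.01; the 3033 at 1.5 mM became 1060, 343 and 649 on FPKM and 836 at 0.01; the 5092 across both gels became 3382 and 3177 on the last 2 FPKM settings and 2676 at 0.01. Between gels DESeq2 passed 16 and 97 genes at 72 h and 96 h and 204 across both, no filter 322, 333 and 512, and the block 43, 289 and 81, where edgeR passed 0, 0 and 5. The cause of these shifts was not tested. With 3 libraries a group, small differences between gels were not detectable, and alleles were not measured.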

Other observations

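Several genes annotated opposite to members had counts but were listed at 0 FPKM in all 12 libraries, and those with the highest counts are named here after their values were seen. *Copg2*, opposite to *Mest*, had a mean of 1979 counts per library, and *Igf2os*, opposite to *Igf2*, a mean of 2100.3. No FPKM comparison of these genes with their partners was possible, and the reason for the zeros was not tested.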
